A study of Rattus norvegicus with 8 samples.

Results

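The genes described here are those of protein processing in the endoplasmic reticulum, taken from the KEGG map of that name (rno04141) as it is annotated for each gene in the deposited files. The map held 160 of the 22601 genes listed for every library. *Bax*, *Bak1* and *Bcl2* of the cell death machinery and the cytosolic heat shock genes *Dnajb1*, *Hsph1*, *Hspa8* and *Hsp90aa1*, 7 genes in all, were left out by their NCBI GeneIDs, which left 153 members. By role, 11 members serve the translocation of new chains into the endoplasmic reticulum, 18 the attachment, trimming and lectin-based quality control of N-linked glycans, 16 folding in the lumen, 16 are cytosolic chaperones, 25 belong to stress signalling, 50 to the degradation of misfolded proteins, 15 to export, and 2 (*Ckap4* and *Rrbp1*, membrane proteins of the rough endoplasmic reticulum) were on none of these lists. Of the 153, 146 had a mean of at least 0.1 FPKM over the 8 libraries and were tested, and 7 were not.

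The endoplasmic reticulum is where secreted and membrane proteins, among them ion channels and neurotransmitter receptors, enter the secretory pathway, are glycosylated and folded, and leave for the Golgi in COPII vesicles. When unfolded chains accumulate in the lumen, the sensors IRE1 (*Ern1*), PERK (*Eif2ak3*) and ATF6 (*Atf6*) start the unfolded protein response: spliced XBP1 and cleaved ATF6 switch on chaperone and degradation genes, and PERK phosphorylates eIF2alpha, which slows translation while ATF4 is made and drives CHOP (*Ddit3*) and GADD34 (*Ppp1r15a*). The PERK branch is shared with other eIF2alpha kinases as the integrated stress response, so that ATF4 targets can move without a stress in the lumen.

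The hippocampus of 8 wild type Wistar rats of 180 to 220 g was sequenced, 1 library for each rat: 3 vehicle controls (Con.), 3 PTZ rats and 2 Q808 rats. Pentylenetetrazole (PTZ), which blocks GABA-A receptors, causes seizures, and when small doses are repeated the response grows until the animal is kindled. PTZ and Q808 rats received PTZ intraperitoneally at 35 mg/kg, 14 times at intervals of 48 h over 28 days, with 60 mg/kg on the final day, while Con. rats received saline. In the next 28 days the Q808 rats were given the anticonvulsant candidate Q808 by gavage at 30 mg/kg daily, and Con. and PTZ rats its solvent. On the day after the last gavage, rats of both PTZ-treated groups had a further sub-convulsive PTZ dose, and the hippocampus was taken after the seizures had been scored, so that PTZ and Con. differ both in past kindling and in a recent PTZ dose. No group received Q808 without PTZ. The labels give no seizure scores for the sequenced rats.

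Before any comparison, 3 libraries stood apart. In Con.-3, PTZ-3 and Q808-1, 1 library of each group, the mean of 7 striatal marker genes was 5.98 to 7.34 on the log2(FPKM + 0.1) scale, against 1.74 to 2.65 in the other 5 libraries. In the same 3 libraries the dentate granule cell markers were lower (1.02 to 1.44 against 2.59 to 2.88), as were the pyramidal cell markers (1.08 to 1.15 against 1.80 to 2.07), and the oligodendrocyte markers were higher (8.63 to 9.39 against 7.30 to 7.99). The choroid plexus markers ranged from 0.673 to 6.02 and were highest in Q808-2. They were at 4.32 and 4.49 in Con.-1 and Con.-2, above PTZ-1 (2.15) and PTZ-2 (1.61), while Con.-3 (0.673) lay below PTZ-3 (2.88). The part of choroid plexus content in the differences below was not tested. Con.-3, PTZ-3 and Q808-1 are called striatum-rich below, and counts of called genes are given with and without them. A fit with the striatal marker mean as a covariate was also run, and beyond these fits their part in a result was not tested. In bulk tissue, fewer cells of a type and less RNA per cell cannot be told apart. Relative depth, read from the steps of the lowest values, ranged from 0.854 (PTZ-3) to 1.19 (Con.-2) with Con.-1 set to 1.

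The members are highly expressed in this tissue. The median over the 146 tested members of the mean level was 28.1 FPKM, against 6.89 FPKM over all 15593 genes tested. The highest levels per length were those of *Hsp90ab1*, the constitutive cytosolic HSP90 (895.6 FPKM), *Skp1*, a subunit of SCF ubiquitin ligases (438.5 FPKM), and *Calr*, the lectin chaperone calreticulin (356.2 FPKM). The lowest tested were *Cryaa*, a small heat shock protein best known from the lens (0.127 FPKM), *Hspa1l*, an HSP70 of the germ line (0.201 FPKM), and *Casp12*, an inflammatory caspase located at the endoplasmic reticulum (0.430 FPKM). By role, the median level was 50.2 FPKM for glycan handling, 36.4 for translocation, 35.8 for cytosolic chaperones, 33.7 for luminal folding, 29.8 for degradation, 19.5 for export and 16.0 for stress signalling. Among the members that were not tested were *Dnajc5b*, *Dnajc5g*, *Lman1l*, *Mogs*, *Sel1l2* and *Ube2d2b*. *Dnajc5g*, *Sel1l2* and *Ube2d2b* were listed at 0 in every library. *Mogs*, the glucosidase that removes the first glucose of every N-glycan, was listed at 0 in 4 libraries and at no more than 0.117 FPKM in the others. Whether these values reflect the RNA level of *Mogs* in this tissue was not tested.

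PTZ rats were first compared with Con. rats to ask whether kindling followed by a recent PTZ dose went with a changed level of these genes. *Tram1*, a membrane protein beside the translocon, was the only member called. It was higher in PTZ at log2 0.63 ± 0.26 (SE; limma, unadjusted p = 0.0488, adjusted p = 0.999). Called means an unadjusted p under 0.05 in limma together with a change above 1.5-fold, and by this rule 1 of 146 members was called, beside 2.53% of all genes tested. At an unadjusted p under 0.05 alone, 5 members passed, 3.42% of them beside 3.78% of all genes, and no member and no other gene had an adjusted p under 0.05 by limma. The median difference over the members was -0.02 on the log2 scale, beside -0.04 over all genes, and 65 of 146 members were above 0 (44.5%, beside 43.0% of all genes). Median ratio scaling moved the median of all genes from -0.04 to 0.006, and splits around 0 given below for that scaling include this shift.

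The count of called members was below the background share, while the share with an unadjusted p under 0.05 and the median were close to it. The members are more highly expressed than the background genes, and a background matched by level was not used. In 9 members every PTZ library was above every Con. library (6.16%, beside 4.11% of all genes) and in 9 every PTZ library was below (6.16%, beside 5.03%). The members above were *Atf4*, *Edem1*, *Herpud1*, *Man1c1*, *Preb*, *Sar1a*, *Sec63*, *Ube2d2* and *Ube2g1*. Those below were the chaperones and folding enzymes *Dnajc10*, *Hsp90b1*, *Hyou1* and *Pdia4*, the glucosidase subunit *Ganab*, the kinase *Eif2ak1*, the protease *Mbtps2*, the ubiquitin ligase *Syvn1* and the ubiquitin receptor *Ubqln2*.

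**Figure D1:**
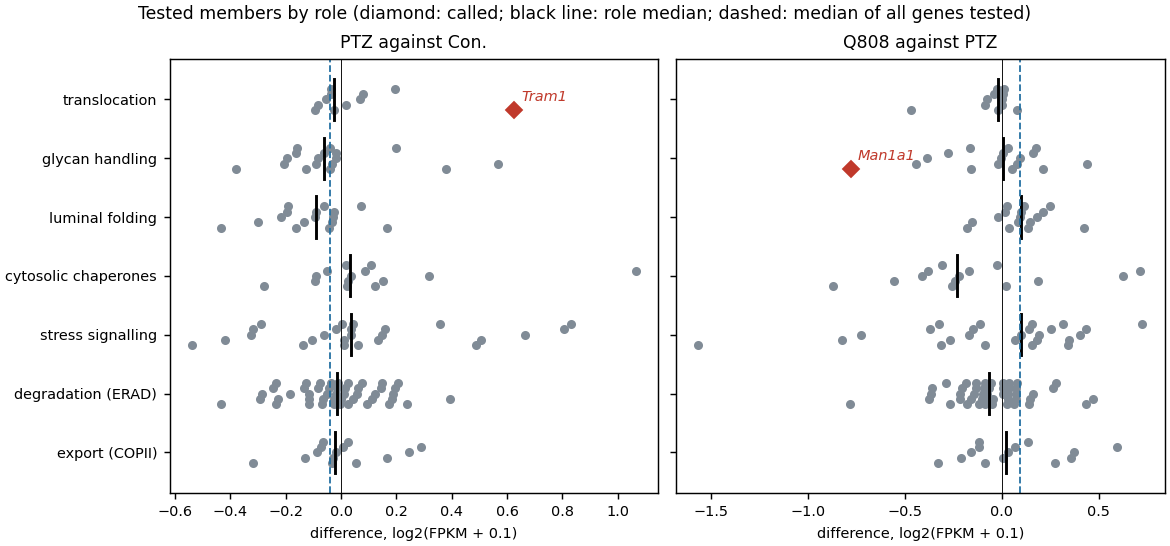
Difference of each tested member on the log2(FPKM + 0.1) scale (horizontal axis) by role (rows) for PTZ against Con. (left) and Q808 against PTZ (right). Diamonds are called members, black lines role medians and the dashed line the median over all genes tested. *Tram1* lies at 0.63 on the left and *Man1a1* at -0.78 on the right, and the medians of the 7 named roles lie between -0.23 and 0.10.

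Among the sensors, levels in the PTZ and Con. groups overlapped. *Ern1*, the kinase and RNase that splices *Xbp1*, was at 1.90 ± 0.247 FPKM in Con. (SD, n = 3) and 1.95 ± 0.208 in PTZ (n = 3), a difference of 0.04 on the log2 scale (SE 0.24). *Eif2ak3* was at 7.43 ± 0.960 and 5.98 ± 1.48 FPKM (-0.33, SE 0.22), and *Atf6* at 11.8 ± 1.00 and 11.3 ± 0.605 FPKM (-0.06, SE 0.14). *Xbp1*, whose total transcript was measured here without regard to splicing, had 70.4, 69.4 and 58.1 FPKM in the Con. libraries and 78.7, 66.9 and 51.8 FPKM in the PTZ libraries. The lowest value of each group came from its striatum-rich library and the group means were nearly equal (66.0 ± 6.80 and 65.8 ± 13.5 FPKM).

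The transcription factors downstream of eIF2alpha were higher in some PTZ libraries. *Atf4*, the central activator of this branch, had 136, 132 and 93.8 FPKM in Con. and 155, 218 and 143 FPKM in PTZ. All PTZ libraries lay above all Con. libraries, with a log2 difference of 0.50 ± 0.22 (SE) that missed the call in limma (unadjusted p = 0.0535, adjusted p = 0.999). *Ddit3*, which encodes the pro-apoptotic factor CHOP, had 13.5, 11.6 and 9.33 FPKM in Con. and 25.0, 34.1 and 9.69 FPKM in PTZ. PTZ-1 and PTZ-2 were above every Con. library, and the striatum-rich library PTZ-3 lay within the Con. range, next to the striatum-rich Con.-3. The log2 difference of *Ddit3* was 0.83 ± 0.44 (SE; limma, unadjusted p = 0.101, adjusted p = 0.999). *Ppp1r15a*, the phosphatase subunit that reverses eIF2alpha phosphorylation, had 12.6, 8.60 and 14.8 FPKM in Con. and 16.1, 25.4 and 10.9 FPKM in PTZ, so that again PTZ-3 alone lay within the Con. range (0.49, SE 0.34). *Map3k5*, the kinase ASK1 that acts below IRE1, was at 6.04, 5.54 and 2.65 FPKM in Con. and 7.08, 19.3 and 3.55 FPKM in PTZ, with PTZ-2 far above the other libraries.

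**Figure D2:**
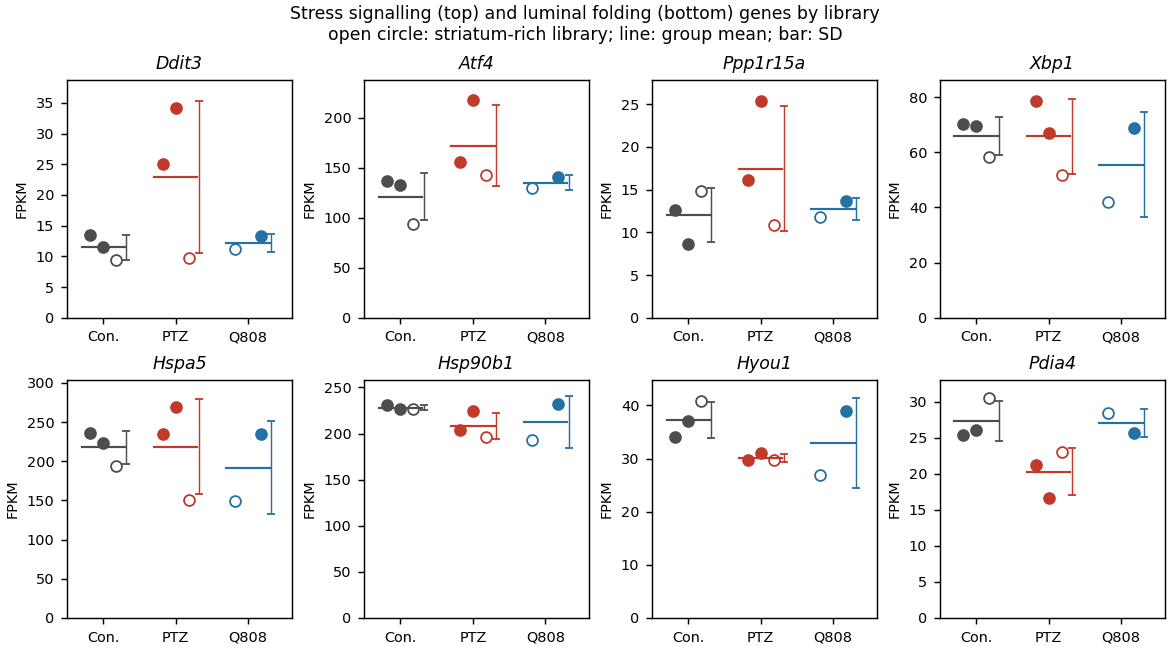
FPKM (vertical axis, from 0) of 4 stress signalling genes (top) and 4 luminal folding genes (bottom) in each library of Con., PTZ and Q808, with open circles for the striatum-rich library of each group, lines for group means and bars for the SD. *Ddit3* is at 25.0 and 34.1 FPKM in PTZ-1 and PTZ-2 and at 9.69 in PTZ-3, while *Pdia4* is between 16.7 and 23.0 FPKM in PTZ and between 25.4 and 30.4 in Con.

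Of the 25 stress signalling members none was called, 16 were above 0 and 9 below (12 and 13 without the striatum-rich libraries), and the only member with an unadjusted p under 0.05 was lower. It was *Mbtps2*, the site-2 protease that releases the ATF6 fragment from the Golgi membrane, named after its values were seen. It had 8.53, 7.57 and 7.36 FPKM in Con. and 5.98, 4.96 and 5.13 FPKM in PTZ. The groups did not overlap, and the difference was -0.54 ± 0.17 (SE; limma, unadjusted p = 0.0147, adjusted p = 0.999), less than 1.5-fold. *Wfs1*, a glycoprotein of the endoplasmic reticulum membrane mutated in Wolfram syndrome, had 99.4, 93.2 and 40.6 FPKM in Con. and 132, 132 and 86.2 FPKM in PTZ (0.66, SE 0.36), and within both groups the striatum-rich library was the lowest.

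Some fits that treat the libraries differently called more of these genes. With the striatal marker mean as a covariate 1 member was called, *Man1c1*, beside 379 genes called higher and 239 called lower of the 15593 tested. With the replicate number as a block, 4 members were called, all higher in PTZ, beside 3.95% of all genes: *Tram1* (0.63, SE 0.15), *Wfs1* (0.66, SE 0.16), *Ddit3* (0.83, SE 0.28) and *Cryaa* (1.07, SE 0.43). None had an adjusted p under 0.05 by limma with the block, and the adjusted p of *Ddit3* was 0.742. Con.-3 and PTZ-3 are both striatum-rich, so that the block also takes up that difference, and same-numbered libraries come from different rats. *Cryaa* rested on 0, 4 and 0 recovered fragments in Con. and 2, 6 and 3 in PTZ. Without the 3 striatum-rich libraries, on 2 rats a group, 6 members were called beside 9.81% of all genes. *Ddit3* (1.22, SE 0.18), *Ppp1r15a* (0.95, SE 0.27), *Man1c1* (0.72, SE 0.12) and *Tram1* (0.72, SE 0.12) were higher, and *Ngly1*, the cytosolic N-glycanase (-0.73, SE 0.15), and *Traf2*, an adaptor of IRE1 (-0.69, SE 0.21), were lower. The adjusted p of *Ddit3* was then 0.0538 in limma, 31 members (21.2%, beside 19.5% of all genes) had an unadjusted p under 0.05, and 0 of the members but 140 genes in all (0.898%) had an adjusted p under 0.05. Leaving out PTZ-3 alone gave 8 calls (5.48% of members, beside 7.28% of all genes), which were *Ddit3*, *Ngly1*, *Tram1*, *Man1c1*, *Traf2*, *Atf4*, *Ppp1r15a* and *Map3k5*. Leaving out PTZ-2 gave none, beside 1.6% of all genes, and without Con.-3 there were 2, *Man1c1* and *Man1a1*, beside 4.1%.

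Genes of the integrated stress response outside the map were followed alongside. Of 17 tested genes on that list, 15 were above 0, beside 43.0% of all genes, with a median of 0.18 on the log2 scale. Of these 17, 1 was called higher, beside 1.69% of all genes called higher. It was *Atf3*, an early-response partner of CHOP, at 0.483, 0.469 and 0.787 FPKM in Con. and 4.95, 9.03 and 0.696 FPKM in PTZ. PTZ-1 and PTZ-2 exceeded every Con. library and PTZ-3 did not (2.32, SE 0.85; limma, unadjusted p = 0.0286, adjusted p = 0.999). Without the striatum-rich libraries *Atf3* (3.56, SE 0.33), *Cebpb*, a bZIP factor of the same response (1.14, SE 0.11), and *Chac1*, a glutathione-degrading target of ATF4 and CHOP (1.16, SE 0.27), were called higher, beside 4.1% of all genes, and the adjusted p was 0.0241 for both *Atf3* and *Cebpb* in limma. *Asns*, asparagine synthetase, is another ATF4 target, and its difference was -0.20 (SE 0.33). Without the striatum-rich libraries *Asns* was lower at -0.30 (SE 0.09; limma, unadjusted p = 0.0149, adjusted p = 0.179). *Mthfd2*, also on the list, was lower there at -0.47 (SE 0.18; limma, unadjusted p = 0.0453, adjusted p = 0.247). Neither of these was called. *Atf3* and *Cebpb* are also known as early-response genes of active neurons.

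No luminal chaperone or folding enzyme was called in PTZ against Con. Of the 16 members with this role, 14 were below 0 in PTZ against Con., with a median of -0.09 on the log2 scale (range -0.43 to 0.16), a median that was -0.14 without the striatum-rich libraries, beside -0.111 over all genes. Of these 16, 12 were below 0 after quantile normalization and 10 after median ratio scaling, where the median was -0.04. *Hspa5*, the abundant HSP70 chaperone BiP that also holds the sensors inactive, had 236, 224 and 194 FPKM in Con. and 235, 269 and 151 FPKM in PTZ. The groups overlapped fully (-0.03, SE 0.23), and the striatum-rich library was the lowest of each. *Hsp90b1*, the luminal HSP90 GRP94, was at 228 ± 2.50 FPKM in Con. and 208 ± 14.2 in PTZ (-0.13, SE 0.12), with each PTZ library below each Con. library.

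The members with an unadjusted p under 0.05 in this role were *Pdia4* and *Hyou1*. *Pdia4*, a disulfide isomerase, had 25.4, 26.1 and 30.4 FPKM in Con. and 21.2, 16.7 and 23.0 FPKM in PTZ. Its groups did not overlap (-0.43, SE 0.16; limma, unadjusted p = 0.0309, adjusted p = 0.999). *Hyou1*, the nucleotide exchange factor of BiP, was at 37.3 ± 3.42 FPKM in Con. and 30.2 ± 0.742 in PTZ (-0.30, SE 0.12; limma, unadjusted p = 0.0379, adjusted p = 0.999). Both differences were less than 1.5-fold. *Pdia3*, the isomerase that works with calnexin and calreticulin (-0.19, SE 0.13), *Dnajc3*, the co-chaperone p58IPK (-0.22, SE 0.15), *Ero1a* (-0.09, SE 0.18) and *Ero1b* (-0.20, SE 0.25), the oxidases that recharge the isomerases, did not differ beyond their spread. *P4hb*, the founding disulfide isomerase PDI (0.16, SE 0.13), and *Dnajb11*, a co-chaperone of BiP (0.07, SE 0.16), were the 2 of the 16 members above 0.

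Genes that spliced XBP1 and ATF6 induce were also followed outside the map. Of 20 tested, 2 were above 0 in PTZ against Con., beside 43.0% of all genes. Their median was -0.09, beside -0.04 over all genes, and none was called. Several lay close to 0, such as *Arfgap3* (-0.03), *Hspa13* (-0.03) and *Srp19* (-0.01), and the split was not counted after other scalings. *Creld2*, a secreted disulfide isomerase, was the only one with an unadjusted p under 0.05 (13.3 ± 1.42 FPKM in Con. and 9.10 ± 2.19 in PTZ; -0.56, SE 0.21; limma, unadjusted p = 0.0293, adjusted p = 0.999). It was called lower without the striatum-rich libraries (-0.76, SE 0.17; limma, unadjusted p = 0.00516, adjusted p = 0.131), the only 1 of the 20, beside 5.71% of all genes.

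Chaperone genes of the lumen are known to be switched on through a promoter element. Promoter windows from 250 bases before to 50 after the start of the transcript were read from the RefSeq table for GRCr8, which held 125 of the 153 members and 27457 genes in all. The ER stress element, CCAAT and CCACG spaced by 9 bases, was searched on both strands. It was found in 8 of the 125 members (6.40%) and in 21 of all 27457 genes (0.0765%), and the 8 were *Hspa5*, *Hsp90b1*, *Canx*, *Xbp1*, *Dnajc3*, *Ero1b*, *Calr* and *Derl3*. The 9 matches are printed because these genes are the known targets of the luminal branch whose levels the comparison asks about. Capitals mark the fixed letters, 5 bases flank each side, and the coordinates are those of the element, with the strand on which it reads as printed.
*Hspa5*, chr3:38452973-38452991, + strand: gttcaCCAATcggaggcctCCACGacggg
*Hsp90b1*, chr7:23012451-23012469, - strand: caaacCCAATcgaaaggagCCACGcttcg
*Hsp90b1*, chr7:23012347-23012365, + strand: acccaCCAATcgtgcctcaCCACGcactc
*Canx*, chr10:35158069-35158087, - strand: cttgtCCAATcatcacgctCCACGaagaa
*Xbp1*, chr14:84604558-84604576, + strand: acaggCCAATcgcagacggCCACGaccct
*Dnajc3*, chr15:102432534-102432552, + strand: caaagCCAATcagcgccaaCCACGaccca
*Ero1b*, chr17:92941458-92941476, - strand: ggcggCCAATgaggcgggaCCACGagggc
*Calr*, chr19:40213135-40213153, - strand: ctgggCCAATcagggtcgaCCACGcgttg
*Derl3*, chr20:12766601-12766619, + strand: gctagCCAATaaggaagtcCCACGgtaga

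The second form of the element, ATTGG and CCACG spaced by 1 base, was found in *Hyou1*, *Dnajb11* and *Herpud1*, 2.40% of the members with a window, and in 17 genes of the table (0.0619%). The distance from the end of the element to the start of the transcript was 24 bases in *Hspa5*, 46 in *Xbp1* and 113 in *Herpud1*, and the *Dnajb11* element ended 1 base past the start.
*Hyou1*, chr8:53602694-53602704, - strand: tgcggATTGGcCCACGtcacg
*Hyou1*, chr8:53602794-53602804, - strand: tccccATTGGgCCACGtagaa
*Dnajb11*, chr11:91672800-91672810, - strand: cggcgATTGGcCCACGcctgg
*Herpud1*, chr19:10614821-10614831, - strand: cgctgATTGGgCCACGttggg

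The core of the UPR element, TGACGTGG, was in 9 members (7.20%; 0.681% of all genes), among them *Sec23a*, *Vcp* and *Hyou1*, and in *Hyou1* it overlapped the second form of the element. The C/EBP-ATF element TGATGNAA, the kind of site bound by ATF4 and CHOP, was in 3 members (2.40%; 4.16% of all genes), *Man1b1*, *Yod1* and *Herpud1*. The 250 bases before the start of *Hspa5* and *Herpud1* are shown as the windows of a chaperone gene with the first form and of a degradation gene with the second form together with a C/EBP-ATF element. In *Herpud1* the latter reads on the opposite strand and appears in capitals as its complement. Capitals again mark fixed letters of a match, and such matches describe the sequence and are not evidence of binding.
*Hspa5*, chr3:38452766-38453015, + strand: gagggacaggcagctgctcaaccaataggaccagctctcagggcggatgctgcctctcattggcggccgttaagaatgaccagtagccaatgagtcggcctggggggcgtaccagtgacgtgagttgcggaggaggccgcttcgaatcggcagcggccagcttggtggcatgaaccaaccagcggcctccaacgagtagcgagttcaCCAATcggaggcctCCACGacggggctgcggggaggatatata
*Herpud1*, chr19:10614708-10614957, - strand: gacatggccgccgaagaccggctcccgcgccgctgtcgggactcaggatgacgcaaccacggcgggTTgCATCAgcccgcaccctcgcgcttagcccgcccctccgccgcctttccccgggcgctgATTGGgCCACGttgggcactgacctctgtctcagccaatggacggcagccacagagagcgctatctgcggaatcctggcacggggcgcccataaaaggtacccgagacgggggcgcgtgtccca

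None of the 8 members with the first form was called. In PTZ against Con. all 8 of these were below 0, with a median of -0.10 (range -0.25 to -0.02), none with an unadjusted p under 0.05, beside a median of -0.02 over the 109 tested members whose window held neither form. After quantile normalization 8 of 8 remained below 0, after median ratio scaling 5, and without the striatum-rich libraries 6. Of the 3 members with the second form, *Herpud1* (0.15, SE 0.12) and *Dnajb11* (0.07, SE 0.16) were above 0 and *Hyou1* was below. In Q808 against PTZ the 8 had a median of -0.01, with 5 below 0. The number below 0 was 3 after quantile normalization, 6 after median ratio scaling (median -0.08) and 2 without the striatum-rich libraries.

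**Figure D3:**
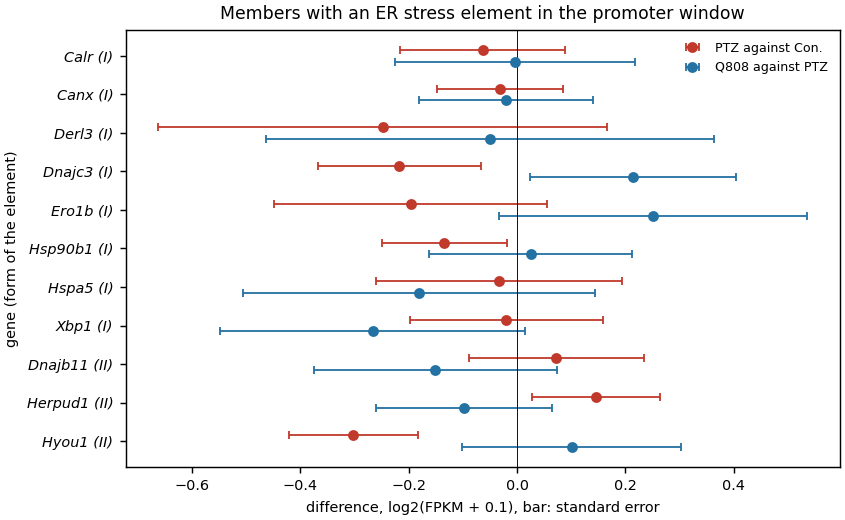
Difference on the log2(FPKM + 0.1) scale with its standard error (horizontal axis) for the 11 members whose promoter window holds the first (I) or second (II) form of the ER stress element, for PTZ against Con. (red) and Q808 against PTZ (blue). In PTZ against Con. 9 of the 11 points lie below 0, from -0.30 for *Hyou1* to -0.02 for *Xbp1*, and most standard errors reach 0.

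Glycan handling genes included no call in PTZ against Con. *Calr* was at 366 ± 42.5 FPKM in Con. and 350.1 ± 36.0 in PTZ (-0.06, SE 0.15), and its membrane-bound partner *Canx* at 148 ± 12.2 and 145 ± 0.864 FPKM (-0.03, SE 0.12). Of the 17 tested, 14 were below 0, with a median of -0.06, and after median ratio scaling 9 of them. *Man1c1*, a mannosidase of the Golgi that trims glycans after export, was named after its values were seen and had the smallest p of all members in PTZ against Con. It had 7.68, 8.29 and 10.2 FPKM in Con. and 13.3, 13.1 and 12.2 FPKM in PTZ. The groups did not overlap, and the difference of 0.57 ± 0.16 (SE; limma, unadjusted p = 0.00876, adjusted p = 0.999) fell just short of 1.5-fold. It was past that limit after quantile normalization, after median ratio scaling and with the striatum list as a covariate.

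None of the 47 degradation genes tested passed an unadjusted p of 0.05 in PTZ against Con., with 21 above and 26 below 0 and a median of -0.01. The differences ranged from -0.44 to 0.39, and with medians this close to 0 the split gives no direction (29 above and 18 below after median ratio scaling). *Syvn1*, the HRD1 ligase that ubiquitinates retrotranslocated proteins, was at 22.4 ± 2.06 FPKM in Con. and 18.2 ± 1.36 in PTZ (-0.29, SE 0.13), and its cofactor *Sel1l* at 39.1 ± 4.15 and 34.7 ± 6.46 FPKM (-0.19, SE 0.17). *Edem1*, the lectin that hands mannose-trimmed proteins to this ligase, had 6.91, 6.41 and 5.23 FPKM in Con. and 8.58, 8.26 and 7.46 FPKM in PTZ. Its groups did not overlap (0.39, SE 0.18; limma, unadjusted p = 0.0598, adjusted p = 0.999), opposite in sign to *Syvn1*. *Herpud1*, a scaffold of the same complex, was at 25.1 ± 0.829 and 27.9 ± 2.18 FPKM (0.15, SE 0.12), and *Derl3*, a channel protein of low level in this tissue, at 1.58 ± 0.690 and 1.27 ± 0.428 FPKM (-0.25, SE 0.41).

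*Tram1* was the exception among the 11 translocation genes. It had 26.9, 23.4 and 17.7 FPKM in Con. and 38.4, 44.5 and 24.0 FPKM in PTZ. PTZ-1 and PTZ-2 were above every Con. library, while PTZ-3 lay between Con.-1 and Con.-2. The call rested on single libraries: the difference was 0.66 without Con.-2, 0.46 without Con.-3, 0.55 without PTZ-1 and 0.44 without PTZ-2, and none of these passed an unadjusted p of 0.05 in limma. It was 0.76 without Con.-1 and 0.89 without PTZ-3, both called. *Tram1* was called in 7 of 17 alternatives. The other 10 lay between -0.09 and 0.19, among them the channel subunits *Sec61a1* (-0.03, SE 0.13) and *Sec61b* (-0.09, SE 0.23).

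No export gene passed the test in PTZ against Con. Of the 14 tested, 6 were above and 8 below 0 in PTZ against Con., with a median of -0.02, and after median ratio scaling 9 were above. *Sar1a*, the GTPase that starts the COPII coat, was at 52.3 ± 3.46 FPKM in Con. and 58.6 ± 0.949 in PTZ (0.17, SE 0.11), with no overlap between the groups. The coat subunits *Sec23a* (-0.03, SE 0.24) and *Sec24d* (0.05, SE 0.20) overlapped.

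The member with the widest range over the libraries was a cytosolic chaperone. *Hspa1a*, the stress-inducible HSP70, was at 1.22, 1.17 and 0.258 FPKM in Con., 0.761, 3.04 and 0.0997 FPKM in PTZ and 0.229 and 1.04 FPKM in Q808. The values of the 3 striatum-rich libraries were the lowest of all, on 9, 3 and 7 recovered fragments, and PTZ against Con. differed by -0.05 (SE 1.02). *Cryab*, the small heat shock protein abundant in oligodendrocytes, was at 86.3, 72.3 and 129.9 FPKM in Con., 76.3, 76.5 and 77.6 FPKM in PTZ and 182 and 77.5 FPKM in Q808. Con.-3 and Q808-1, whose oligodendrocyte marker means were among the highest of the 8, had the highest *Cryab*, and PTZ-3 did not (-0.28, SE 0.21 in PTZ against Con.). No cytosolic chaperone was called in PTZ against Con. among the 14 tested. The rat gene *Hspa1b* was not annotated to the map and has no value here.

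**Figure D4:**
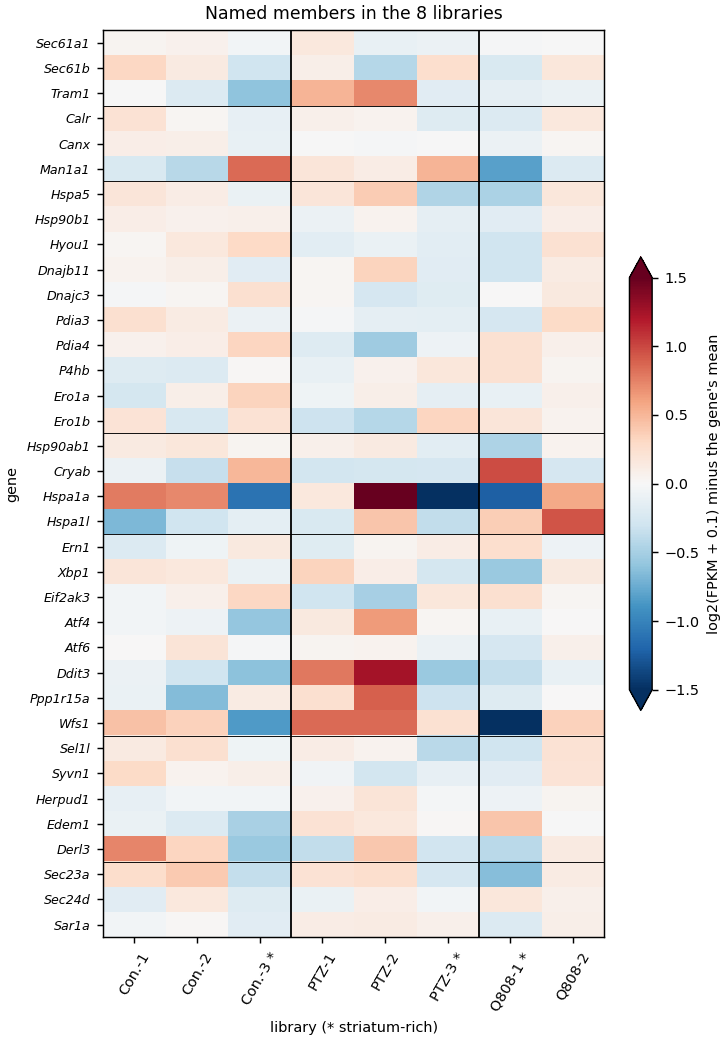
log2(FPKM + 0.1) of 36 named members (rows, grouped by role from translocation at the top to export at the bottom) minus each gene's mean over the 8 libraries (columns, asterisks for striatum-rich libraries), in colour from -1.5 (blue) to 1.5 (red). *Hspa1a* and *Wfs1* are blue in at least 2 of the starred libraries, *Ddit3* is red in PTZ-1 and PTZ-2 alone, and most rows are pale.

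Most members varied little among the libraries. The median range over the 8 libraries was 0.60 on the log2 scale and the median SD within groups 0.19, while *Hspa1a* spanned 3.98, *Wfs1* 3.03 and *Map3k5* 2.82. In 23 members the 3 striatum-rich libraries were all below the other 5 (15.8%, beside 9.59% of all genes), and in 11 all above (7.53%, beside 15.2%). Below were *Hspa1a*, *Wfs1*, *Map3k5*, *Ddit3*, *Hspa5*, *Xbp1*, *Sec23a*, *Sel1l*, *Dnajb11* and *Calr* among others. Each group holds 1 such library, but these are 1 of 3 in Con. and in PTZ and 1 of 2 in Q808, so that they make up a larger share of the Q808 group.

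Q808 rats were then compared with PTZ rats, which asks what the drug changed in kindled rats. *Man1a1*, an alpha-mannosidase of the early Golgi that trims N-glycans, was the only member called. It was lower in Q808 at log2 -0.78 ± 0.26 (SE; limma, unadjusted p = 0.0214, adjusted p = 0.952). This is 1 of 146 members, beside 1.92% of all genes tested. At an unadjusted p under 0.05 alone, *Man1c1* was added (1.37% of members, beside 2.19% of all genes), and no gene had an adjusted p under 0.05 by limma. The median of the members was 0.00 on the log2 scale, beside 0.10 over all genes, and 51.4% of members were above 0, beside 61.7% of all genes. The members' median was -0.018, beside 0.011 over all genes, after quantile normalization and -0.067, beside 0.029, after median ratio scaling. In 11 members both Q808 libraries were above all PTZ libraries (7.53%, beside 10.6%), and in 9 they were below (6.16%, beside 5.02%).

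*Man1a1* had 14.8, 14.1 and 18.6 FPKM in PTZ, 7.38 and 11.3 FPKM in Q808, and 11.2, 9.77 and 23.6 FPKM in Con. The Q808 libraries were below the PTZ libraries, while the Con. group spanned the range of both. Without the striatum-rich libraries the difference was -0.35 (SE 0.14; limma, unadjusted p = 0.0600, adjusted p = 0.402), and leaving out PTZ-1 (-0.82), PTZ-3 (-0.66) or Q808-1 (-0.47) also ended the call. *Man1c1* was at 12.9 ± 0.570 FPKM in PTZ (n = 3) and 9.34 and 9.55 FPKM in Q808 (-0.44, SE 0.18; limma, unadjusted p = 0.0440, adjusted p = 0.952). The comparisons of PTZ with Con. and with Q808 share the 3 PTZ libraries and are not independent.

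**Figure D5:**
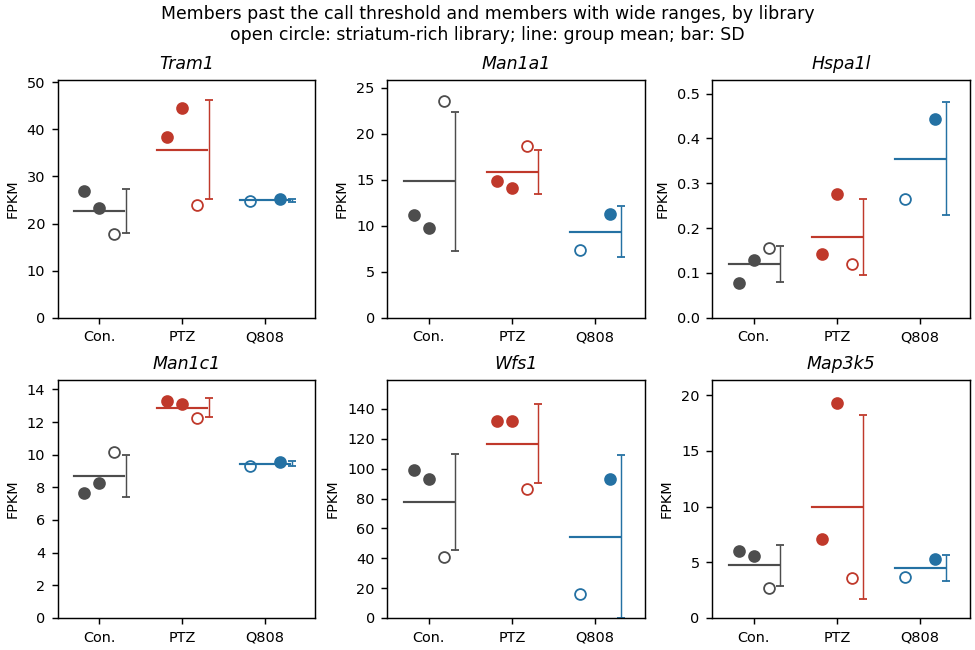
FPKM (vertical axis, from 0) of the 3 called members *Tram1*, *Man1a1* and *Hspa1l*, of *Man1c1*, and of *Wfs1* and *Map3k5* with wide ranges, in each library of Con., PTZ and Q808, with open circles for striatum-rich libraries, lines for group means and bars for the SD. *Man1c1* lies between 12.2 and 13.3 FPKM in PTZ and at or below 10.2 in the other groups, and *Wfs1* is at 16.0 FPKM in Q808-1 and 93.0 in Q808-2.

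No stress signalling gene passed the test in Q808 against PTZ, where 14 of 25 were above 0 (12 after quantile normalization). *Ddit3* was at 11.2 and 13.3 FPKM in Q808, below PTZ-1 and PTZ-2 and above PTZ-3 (-0.73, SE 0.51; limma, unadjusted p = 0.205, adjusted p = 0.952). *Atf4* was at 129.6 and 140.5 FPKM, below every PTZ library (-0.33, SE 0.23), and *Ppp1r15a* at 11.8 and 13.7 FPKM (-0.37, SE 0.36). Without the striatum-rich libraries, on 2 PTZ libraries and 1 Q808 library, *Ddit3* was called lower (-1.13, SE 0.22; limma, unadjusted p = 0.00732, adjusted p = 0.297). The other 3 of the 4 calls in that fit, beside 9.26% of all genes, were *Tram1* (-0.72, SE 0.14), *Ngly1* (0.85, SE 0.20) and *Eif2ak2*, the kinase PKR (0.60, SE 0.22). The lone Q808 library is assumed there to vary like the others. Leaving out PTZ-3 alone gave 6 calls (4.11% of members, beside 10.1% of all genes) and leaving out Q808-2 gave 10 (6.85%, beside 8.34%). Without PTZ-1 or Q808-1 there were none, beside 0.847% and 2.07% of all genes.

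*Wfs1* had the widest gap between the Q808 rats among the stress signalling genes named. It had 16.0 FPKM in Q808-1 and 93.0 in Q808-2, against 132, 132 and 86.2 FPKM in PTZ (-1.56, SE 0.69; limma, unadjusted p = 0.0628, adjusted p = 0.952). Q808-2 differed by -0.50 from PTZ-1 and PTZ-2, and among the striatum-rich libraries Q808-1 differed by -2.42 from PTZ-3. *Xbp1* (-0.27, SE 0.28), *Ern1* (0.10, SE 0.31), *Eif2ak3* (0.35, SE 0.27) and *Atf6* (-0.09, SE 0.20) did not differ beyond their spread.

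Luminal folding genes were mostly above 0 in Q808 against PTZ, 13 of 16, with a median of 0.10, equal to that of all genes. After median ratio scaling 10 of the 16 were above 0 with a median of 0.03. Without the striatum-rich libraries, where Q808-2 is the only Q808 library, 14 were above 0 with a median of 0.26, beside 0.157 over all genes. None was called in any of these fits. The choroid plexus marker mean was 6.02 in Q808-2, against 2.15 in PTZ-1 and 1.61 in PTZ-2, and its part in these differences was not tested. *Pdia4* was at 28.5 and 25.6 FPKM in Q808, above each PTZ library (0.42, SE 0.20; limma, unadjusted p = 0.0754, adjusted p = 0.952). *Hspa5* was at 150 and 234 FPKM (-0.18, SE 0.32), *Hyou1* at 26.9 and 38.9 FPKM (0.10, SE 0.20) and *Hsp90b1* at 193 and 232 FPKM (0.03, SE 0.19), in each case with Q808-1 the lower library. *Sdf2l1*, a BiP cofactor outside the map, was the only called gene of the 20 induced by XBP1 and ATF6, at 9.86 ± 1.33 FPKM in PTZ and 13.6 and 17.1 FPKM in Q808 (0.63, SE 0.22; limma, unadjusted p = 0.0262, adjusted p = 0.952), beside 1.36% of all genes called higher. In the fit without the striatum-rich libraries 2 of the 20 were called higher, *Sdf2l1* (0.87, SE 0.20) and *Creld2* (0.59, SE 0.21), beside 7.06% of all genes. No gene of the integrated stress response list was called in Q808 against PTZ, where 5 of 17 were above 0, beside 61.7% of all genes. *Cebpb* was called lower without the striatum-rich libraries (-1.28, SE 0.14; limma, unadjusted p = 0.000787, adjusted p = 0.174), beside 2.2% of all genes.

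The remaining roles gave no call in Q808 against PTZ. Of the 14 cytosolic chaperones 10 were below 0, with a median of -0.23, beside 0.10 over all genes. Their median was -0.18 after quantile normalization (all genes 0.011) and -0.30 after median ratio scaling (all genes 0.029). Without the striatum-rich libraries it was -0.07, beside 0.157 over all genes. Of the degradation genes 20 were above and 27 below 0 (median -0.07), a split that turned to 29 above and 18 below without the striatum-rich libraries, where the median of all genes was 0.157, with *Edem1* at 0.08 (SE 0.22), *Herpud1* at -0.10 (SE 0.16), *Syvn1* at 0.16 (SE 0.19), *Sel1l* at 0.04 (SE 0.25) and *Derl3* at -0.05 (SE 0.41). Of the translocation genes 5 were above and 6 below 0 (8 and 3 without the striatum-rich libraries), and *Tram1* was at 24.7 and 25.1 FPKM, just above PTZ-3 and far below PTZ-1 and PTZ-2 (-0.47, SE 0.28). Export genes had a median of 0.02, which was -0.05 after median ratio scaling, with *Sec23a* at -0.33 (SE 0.29), *Sec24d* at 0.13 (SE 0.24) and *Sar1a* at -0.16 (SE 0.16).

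Q808 rats were last set beside Con. rats, which differ in kindling, the recent PTZ dose and the drug together. Again 1 of 146 members was called, beside 3.46% of all genes. It was *Hspa1l*, at 0.0766, 0.129 and 0.155 FPKM in Con., 0.142, 0.276 and 0.120 FPKM in PTZ and 0.265 and 0.444 FPKM in Q808 (1.03, SE 0.41; limma, unadjusted p = 0.0498, adjusted p = 0.901). The Q808 values were the highest of the 3 Con. and 2 Q808 libraries but rested on 9 and 18 recovered fragments, against 3 to 6 in Con. Leaving out Con.-1 (0.88), Con.-2 (1.07), Con.-3 (1.15) or Q808-2 (0.75) each ended the call, and without Q808-2 the number of called members was 14 (9.59%, beside 11.5% of all genes). Without the striatum-rich libraries *Hspa1l* was again the only member called (1.43, SE 0.43), beside 4.71% of all genes.

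The members' median in Q808 against Con. was -0.03, beside 0.04 over all genes, and 62 of 146 were above 0 (42.5%, beside 55.3%). This gap depended on the scaling. The members' median was -0.022, beside -0.016 over all genes, after quantile normalization and -0.051, beside 0.024, after median ratio scaling. At an unadjusted p under 0.05, 1 member passed (0.685%, beside 4.28%). In 17 members Q808 was above Con. without overlap (11.6%, beside 13.3% of all genes) and in 6 below (4.11%, beside 6.71%). *Ddit3* (0.10, SE 0.21), *Atf4* (0.18, SE 0.22) and *Ppp1r15a* (0.12, SE 0.26) overlapped between Q808 and Con., as did *Hspa5* (-0.21, SE 0.25). *Edem1* (0.47, SE 0.22; limma, unadjusted p = 0.0836, adjusted p = 0.901) and *P4hb* (0.26, SE 0.15) were above Con. in both Q808 libraries. Of the integrated stress response list 2 genes were called higher, *Atf3* (1.80, SE 0.42; limma, unadjusted p = 0.00652, adjusted p = 0.901) and *Ddit4*, an inhibitor of mTORC1 (0.66, SE 0.25; limma, unadjusted p = 0.0396, adjusted p = 0.901), beside 3.07% of all genes called higher. *Atf3* was at 1.54 and 3.15 FPKM in the Q808 rats, above every Con. library, and it was also called without the striatum-rich libraries (2.50, SE 0.33), where *Ddit4* was not (0.24, SE 0.14).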

How the data were processed

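Hippocampal RNA of 8 rats was sequenced, with 1 library per rat, and grouped by the titles in the labels. Reads were trimmed (Trimmomatic) and FPKM computed (Cufflinks) by the authors, and the deposited FPKM of 22601 genes per library, with their pathway annotation, were used as deposited. The submitters' processing notes also list HISAT2, Bowtie2, SAMtools, StringTie, HTSeq and DESeq, and the genome build is not given in the sources used here. Symbols for all 153 members came from RefSeq (GRCr8), used for names and promoters only.

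Genes with a mean of at least 0.1 FPKM (15593) were tested on log2(FPKM + 0.1), a scale that understates changes of low genes, with limma 3.58.1 (R 4.3.3; empirical Bayes with a trend) on the 2 groups of each comparison. Called genes had an unadjusted p-value below 0.05 and a change over 1.5-fold, with Benjamini-Hochberg adjustment over all genes tested. The authors tested counts with DESeq, and counts were not used here. The p-values measure the spread between these rats alone. Tables and figures were made with Python 3.11.15, pandas 2.3.3, numpy 2.4.6 and matplotlib 3.10.9. The fit was checked on simulated data with changes well above 1.5-fold, so that the check does not cover changes near that limit.

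The depth is known in relative terms only. The values of the 149 members with any value were whole multiples of a step per gene and library within 0.02 of a fragment, which gave the smallest fitting numbers of fragments. They were used as a description of low genes, for which counting error is added to the spread between rats. Spearman correlations between libraries lay between 0.940 and 0.988.

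Members, role lists, marker lists and tests were chosen with earlier results of these data known. The members named were those called, a fixed list of sensors, chaperones, degradation and export genes, and the 3 highest and 3 lowest by level. Members not called are named beyond that only where they were singled out after their values were seen. Of 21 listed XBP1 and ATF6 targets outside the map 20 were measured, and of 19 integrated stress response genes 17 were tested.

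Replicate numbers are shared by the groups. The deviations from the group means of same-numbered Con. and PTZ libraries correlated at 0.212, 0.299 and 0.422, all positive. PTZ-1, however, correlated more with Con.-2 (0.322), and the libraries come from different rats. The blocked values are given beside PTZ against Con. as an alternative only. The highest of the same-numbered correlations, 0.422, was that of Con.-3 and PTZ-3, which are both striatum-rich, so that the block also takes up that difference. Deviations from a group mean cancel out within the group, so that these correlations are not independent of each other. Alternatives were other pseudocounts, filters, scalings, a joint fit, no trend, the block, the striatum list as a covariate, a 1.2-fold limit, and fits without single libraries or the striatum-rich ones. Protein sequences were not used here. The values of 1 untested member are not reported here.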

Additional observations from a re-analysis of the deposited data

How the results depend on the processing

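The number of called members depends on the fit, and with 2 or 3 rats a group no member had an adjusted p under 0.05 in any alternative run. In PTZ against Con. 1 member was called, and none with all genes above 0, a mean of at least 1 FPKM or no trend. In these settings 289 genes were called higher and 163 lower of 18431, 176 and 95 of 12563, and 302 and 176 of 15593. At 1.2-fold 5 members were called, and calls over all genes were not counted there. Without the striatum-rich libraries 6 members were called, beside 9.81% of all genes. The median of -0.02 was 0.027 after median ratio scaling and -0.058 without the striatum-rich libraries. In Q808 against PTZ the count was 0 with all 3 groups in a fit, beside 289 genes called higher and 115 lower of 15593. It was 2 after quantile normalization (beside 130 and 142 genes) and 2 with the striatum covariate (beside 379 and 198). At 1.2-fold it was also 2, and calls over all genes were not counted there. In Q808 against Con. the count was 0 with pseudocounts of 1 or 0.01, a mean of at least 1 FPKM, quantile normalization or median ratio scaling. In the same order, 313 genes were called higher and 27 lower, 467 and 63, 328 and 41 (of 12563), 283 and 155, and 434 and 77. Leaving out a library in turn gave 0 to 8, 0 to 10 and 0 to 14 called members for PTZ over Con., Q808 over PTZ and Q808 over Con. (7.28%, 8.34% and 11.5% of all genes were called in the fits with the highest counts), and medians from -0.027 to 0.021, -0.111 to 0.052 and -0.099 to 0.059. In those fits the lone Q808 library is assumed to vary like the PTZ or Con. libraries.

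With the replicate number as a block, 4 members were called in PTZ against Con., 9 in Q808 against PTZ (beside 12.1% of all genes) and 2 in Q808 against Con. (beside 6.9%). In the last 2 comparisons the groups share 2 numbers, which is too few to show a pairing (correlations of -0.295 and 0.322, and of -0.379 and 0.527), and the block leaves the third PTZ or Con. library without weight. The cause of these shifts was not tested. Of the members not called, 80, 85 and 91 of 145, in the same order, changed sign in at least 1 alternative, so that small differences carry no direction. Counting error limits Cryaa, Hspa1l, Casp12 and Hspa1a.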
